A study of Mus musculus with 8 samples.

Results

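The genes described here are 7 transcription factor genes of B-cell development: Irf4 and Irf8 of the interferon regulatory factor (IRF) family, Spi1 (encoding PU.1, listed in the files under its older name Sfpi1) and Spib of the ETS family, and the Ikaros family genes Ikzf1 (Ikaros), Ikzf2 (Helios) and Ikzf3 (Aiolos). They were taken by gene name, with all of their probes, from 55681 non-control probes under 34551 gene names. The 7 genes had 10 probes: 1 each for Irf4, Irf8, Spib, Spi1 and Ikzf3, 2 for Ikzf2 and 3 for Ikzf1. RNA came from 1676 cells, a mouse pre-B line of genotype SLP-65-/- LAT-/- cultured in the cytokine interleukin-7 (IL-7). By retroviral transduction and puromycin selection, cells received hsa-miR-125b-1, a human microRNA gene, or the control vector. Each was grown with IL-7 in excess or kept for 24 h without it, which the submitters describe as a way to induce differentiation. The 4 groups, control and miR-125b cells with and without IL-7, held 2 arrays each, from independently generated cell clones. All 4 groups share the line, the genotype, a retroviral vector and puromycin selection.

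IRF4 and IRF8 bind DNA weakly by themselves and are recruited by PU.1 or SPI-B to composite ETS-IRF elements. In pre-B cells they are known for ending the IL-7-driven and pre-B-cell-receptor-driven proliferation and for opening the immunoglobulin light chain loci, and signalling through the IL-7 receptor is known to restrain Irf4. Ikaros, Helios and Aiolos are zinc-finger proteins whose first fingers bind DNA and whose last fingers form dimers, and much of Ikaros and Aiolos is found in the chromatin-remodelling NuRD complex. Ikzf1 makes many isoforms by alternative splicing, so its probes can report different transcripts. IRF4 has been described as a target of miR-125b in B cells.

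The mature microRNA is shown first, since the vector comparisons turn on it. The mouse counterpart of the vector's human microRNA, from RefSeq on GRCm38.p6, is made from Mir125b-1 (chr9:41581940-41581961) and Mir125b-2 (chr16:77646279-77646300). Capitals mark the seed, bases 2 to 8, which pairs with target RNAs.
mmu-miR-125b-5p: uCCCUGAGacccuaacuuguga

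The start-site windows of Irf4, Irf8 and Spib are given as examples. Irf4 rose without IL-7, Spib was lower with miR-125b, and Irf8 was called in no comparison of the main analysis. The Ikzf1 windows were searched but are not shown, though Ikzf1 probes were also called. Each window holds 250 bases before and 50 bases from the RefSeq start on, in the direction of the gene, on GRCm38.p6. Both strands were searched for GGAA and GAAA separated by 2 bases (an ETS-IRF composite element), GAAA and GAAA separated by 2 bases (the interferon-stimulated response element), TTCNNNGAA (bound by STAT factors such as STAT5, which IL-7 activates), GTAAACA (bound by FOXO factors), TGGGAA (a core bound by Ikaros) and CANNTG (the E-box, bound by E2A). The 2 elements with GAAA can overlap each other. Capitals in the windows mark TTCNNNGAA and TGGGAA.
Irf4, chr13:30748983-30749282, plus strand: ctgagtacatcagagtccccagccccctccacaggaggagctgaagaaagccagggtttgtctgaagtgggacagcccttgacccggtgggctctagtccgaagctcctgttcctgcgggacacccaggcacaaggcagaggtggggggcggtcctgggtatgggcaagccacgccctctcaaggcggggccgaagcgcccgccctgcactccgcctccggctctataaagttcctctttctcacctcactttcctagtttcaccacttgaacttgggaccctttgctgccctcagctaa
Irf8, chr8:120736108-120736407, plus strand: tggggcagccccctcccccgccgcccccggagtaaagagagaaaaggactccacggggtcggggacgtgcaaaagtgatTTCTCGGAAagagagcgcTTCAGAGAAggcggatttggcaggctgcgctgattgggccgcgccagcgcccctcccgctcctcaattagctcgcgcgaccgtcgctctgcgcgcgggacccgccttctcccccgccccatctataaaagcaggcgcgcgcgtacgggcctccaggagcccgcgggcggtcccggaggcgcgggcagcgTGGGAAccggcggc
Spib, chr7:44532022-44532321, minus strand: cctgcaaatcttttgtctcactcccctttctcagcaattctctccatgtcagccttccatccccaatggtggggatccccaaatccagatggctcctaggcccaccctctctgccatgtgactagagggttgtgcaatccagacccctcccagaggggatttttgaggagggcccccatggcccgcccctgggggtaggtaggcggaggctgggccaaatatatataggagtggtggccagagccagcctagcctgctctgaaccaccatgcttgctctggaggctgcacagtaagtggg

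The Irf8 window held TTCNNNGAA at positions -171 and -153 from the start, letters found in 8.3% of 32851 windows of this length, and TGGGAA at 36, found in 25.6%. The windows of Irf4 and Spib held CANNTG, found in 72.3% of windows, and none of the other letters searched. The composite element, found in 2.72% of windows, the interferon-stimulated element, in 3.44%, and GTAAACA, in 3.65%, were in none of these 3 windows. A second Irf8 start and 2 Ikzf1 starts are also listed by RefSeq, and among these TTCNNNGAA occurred once, at 18 in the second Ikzf1 window (chr11:11689927-11690226). A match of letters does not show a bound site.

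Of the array's 60-base probes, 2 are shown because they lie in coding sequence. The Spi1 probe spans an exon junction, from position 90939665 to 90953452 of chromosome 2 in mm9, the build of the files, and covers codons of PU.1 before its DNA-binding ETS domain. The third Ikzf1 probe (chr11:11669493-11669552, mm9, plus strand) covers codons of the last zinc finger of Ikaros, in its dimerisation domain. No letters are capitalised in them.
Spi1 probe: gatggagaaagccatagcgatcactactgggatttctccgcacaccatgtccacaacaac
Ikzf1 probe 3: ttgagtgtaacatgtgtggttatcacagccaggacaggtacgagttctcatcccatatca

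The other probes lay, in mm9, at chr13:30858532-30858591 for Irf4, chr8:123280324-123280383 for Irf8, chr7:51781392-51781451 for Spib and chr11:98326176-98326235 for Ikzf3. The first Ikzf1 probe lay at chr11:11672828-11672887 and the second at chr11:11661344-11661403. The second Ikzf1 probe carries an Ensembl transcript in place of the RefSeq one, and 4 of the 8 files, those with IL-7, name it Ikzf1. Which exon or untranslated region these probes lie in was not determined here.

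Signals are given as log2 of the scanner's processed signal relative to the 75th percentile of the same array, so that 0 is the 75th percentile and 1 unit is a 2-fold step. A value is a level of 1 probe, and levels of different probes cannot be set against each other. A probe counted as detected where the scanner marked it well above background. Between 47.7% and 54.8% of the probes were so marked per array, and 0 were saturated. Replicate arrays correlated at r of 0.994 to 0.996 over the tested probes. All 14 pre-B and B-lineage markers listed, Pax5 and Ebf1 among them, were detected on all 8 arrays. Of 15 myeloid markers, Ly6g, S100a8 and S100a9 were detected on no array, while Itgam, Csf1r, Csf3r, Elane and Fcgr3 were detected on all 8. Of 7 dendritic cell markers, Itgax, Xcr1, Clec9a and Batf3 were detected on none, Siglech and Bst2 on all 8 and Zbtb46 on 7. Probes of both deleted genes, Blnk (SLP-65), at 7.05 to 7.48, and Lat, at 1.36 to 1.86, gave signal on 8 of 8 arrays. Whether these probes lie in the deleted parts is not known, so they do not check the genotype.

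Tests used limma over 29811 detected probes with a Benjamini-Hochberg adjusted p, and a probe was called at an adjusted p under 0.05. Of the 10 probes, 8 were tested, all 8 detected on every array, and the 2 Ikzf2 probes were not. The clones were made independently, and with 2 arrays a group the p-values measure only the spread between these arrays. The 4 IL-7 arrays shared 1 slide and 1 scan and the 4 others a second slide and scan, so the effects of withdrawal and of slide or scan cannot be told apart. Control arrays took slide columns 1 and 2 and miR-125b arrays columns 3 and 4, and the effects of vector and column cannot be told apart either. Array signals are relative to total RNA, so less RNA per cell and fewer cells with the RNA cannot be told apart.

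**Figure D1:**
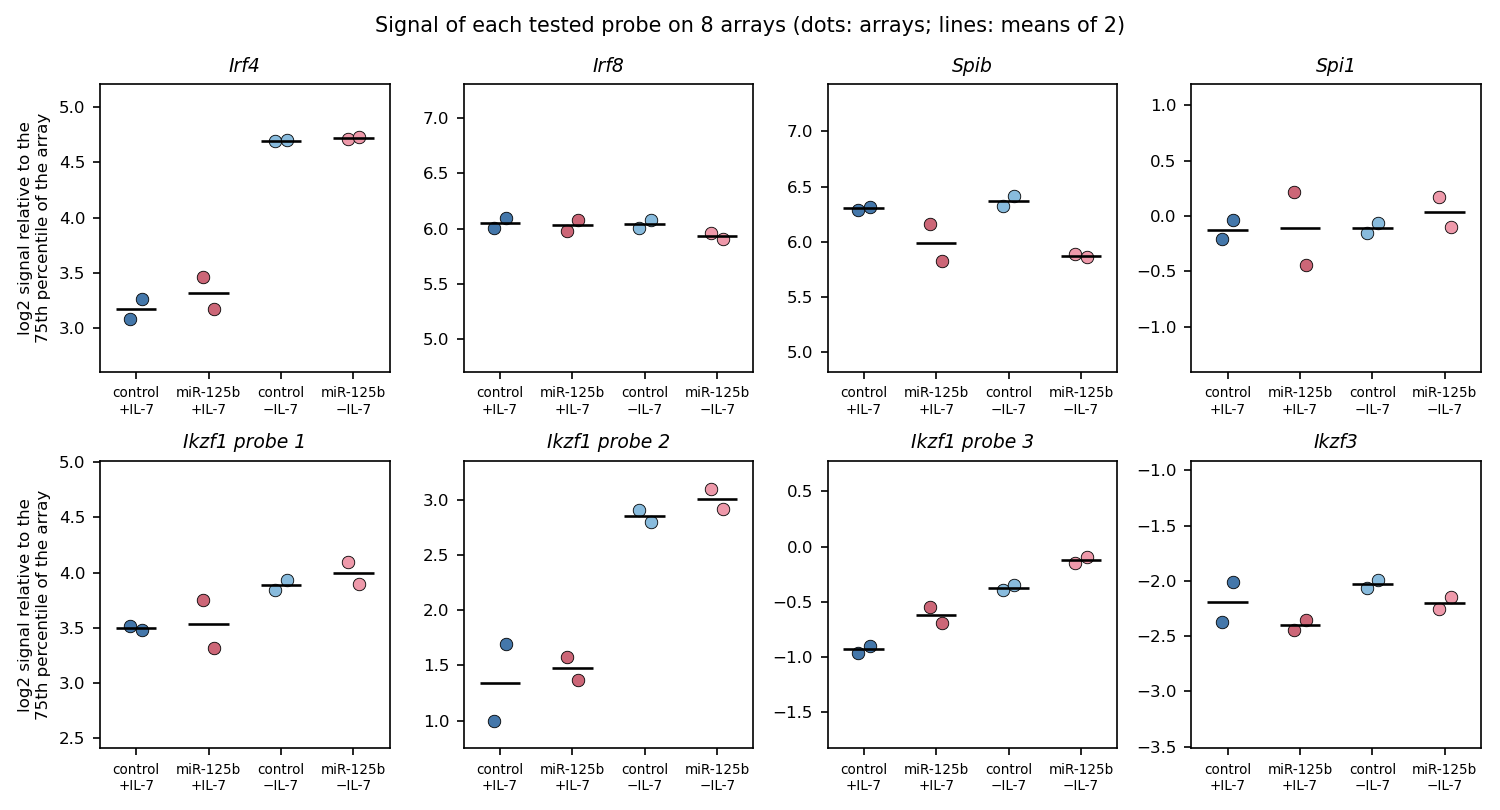
Log2 signal of the 8 tested probes relative to the 75th percentile of each array (vertical axis, each panel spanning the same log2 range), by group (horizontal axis); dots are arrays and lines are the means of 2. Irf4 and every Ikzf1 probe stood higher on all 4 arrays without IL-7 than on all 4 with it. Spib stood lower on all 4 miR-125b arrays than on all 4 control arrays. How many of all tested probes separate in these ways was not counted. On withdrawal 51.2% of them were called in control and 49.3% in miR-125b cells.

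Withdrawal of IL-7 asked which of these regulators change when the growth signal stops. Irf4 RNA rose to nearly 3 times its level in control and in miR-125b cells, Ikzf1 RNA rose on 2 of its 3 probes, and Irf8, Spib, Spi1 and Ikzf3 were not called. In control cells 3 of the 8 probes were called, all higher, where 51.2% of all tested probes were called, 20.8% higher and 30.4% lower. In miR-125b cells the same 3 probes were called higher, against 49.3% of all probes called, 21.2% higher and 28.1% lower. The median difference of the 8 probes was 0.27 in control and 0.33 in miR-125b cells, beside -0.09 and -0.06 over all tested probes. The members' share of calls in either direction was below the background, so the counts show nothing particular to these genes.

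Irf4 encodes the IRF whose level rises as pre-B cells leave the IL-7 stage. With IL-7 its signal was 3.08 and 3.26 on the control arrays and 3.46 and 3.17 on the miR-125b arrays. Without IL-7 it was 4.69 and 4.70 on the control arrays and 4.71 and 4.73 on the miR-125b arrays. The 4 arrays without IL-7 were all above the 4 with IL-7, and lay close together. In control cells the difference was 1.53 (SE 0.12, 95% interval 1.23 to 1.83, n = 2 per group), a 2.89-fold rise, with an adjusted p of 0.00148 by limma and Benjamini-Hochberg. In miR-125b cells it was 1.40 (SE 0.12, 95% interval 1.11 to 1.70), a 2.65-fold rise, with an adjusted p of 0.002. Both were called under each of 19 other settings tried, with values from 1.20 to 1.75 in control and from 1.16 to 1.63 in miR-125b cells. The response did not pass a test of difference between the cells: the difference of responses, miR-125b minus control, was -0.13 (SE 0.17, 95% interval -0.55 to 0.30, adjusted p 0.993).

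Irf8, which shares DNA sites and partners with Irf4, was at 6.01 and 6.10 in control cells with IL-7 and at 6.01 and 6.08 without it. In miR-125b cells it was at 5.98 and 6.08 with IL-7 and at 5.96 and 5.91 without. The control groups overlapped and the miR-125b groups narrowly did not. The differences were -0.01 (SE 0.08, 95% interval -0.21 to 0.19, adjusted p 0.922) and -0.09 (SE 0.08, 95% interval -0.29 to 0.11, adjusted p 0.371). The sign of this small difference depends on how arrays are brought to one scale: quantile normalization gave 0.35 and 0.29 with both called, and scaling to the median gave -0.34 in each, not called.

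A constant scaling factor cancels in the difference between 2 probes of the same array. Array differences that depend on the signal do not cancel, and their part was not tested. The Irf4 minus Irf8 difference moved from -2.80 ± 0.19 (SD, n = 4) with IL-7 to -1.28 ± 0.08 (SD, n = 4) without it, a change of 1.52. Each side pools the control and miR-125b arrays of 1 slide, so its 4 arrays are not replicates of 1 condition. The arrays with IL-7 ranged from -2.93 to -2.52 and those without from -1.38 to -1.18, so they did not overlap. A two-sided exact permutation test over 70 regroupings gave p = 0.0286, the smallest these 4 against 4 arrays allow, and 0.0572 after Benjamini-Hochberg adjustment over the 6 probe pairs compared. The pairs were chosen after the values were seen, so these p-values describe how the arrays separate and are no independent test.

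**Figure D2:**
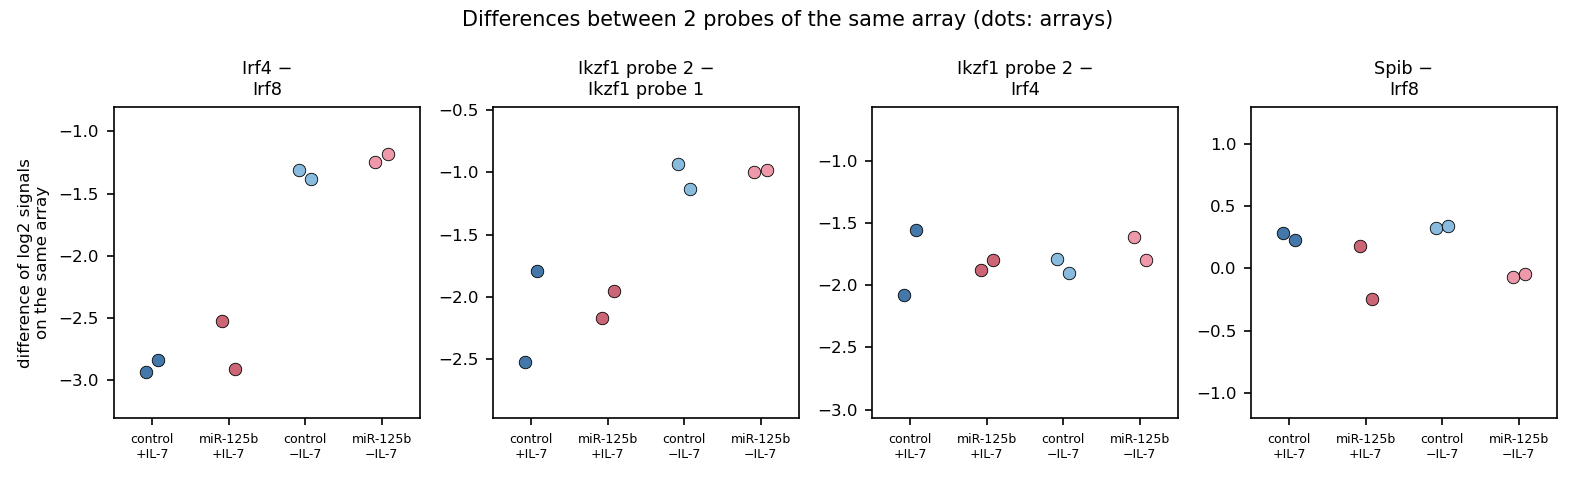
Difference of log2 signals between 2 probes of the same array (vertical axis) for 4 probe pairs by group (horizontal axis); each dot is 1 array, and only changes between groups carry meaning, not the height. Irf4 minus Irf8 and the second minus the first Ikzf1 probe stood higher on all 4 arrays without IL-7, the second Ikzf1 probe minus Irf4 did not shift, and Spib minus Irf8 was lower on the miR-125b arrays.

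The ETS partners gave no called response. Spib, encoding the B-cell and plasmacytoid dendritic cell relative of PU.1, was at 6.29 and 6.32 in control cells with IL-7 and at 6.33 and 6.42 without, with no overlap. In miR-125b cells it was at 6.16 and 5.83 with IL-7 and at 5.89 and 5.86 without, with overlap. The differences on withdrawal were 0.07 (SE 0.12, 95% interval -0.23 to 0.37) and -0.12 (SE 0.12, 95% interval -0.42 to 0.18), with adjusted p of 0.656 and 0.442 by limma and Benjamini-Hochberg. In control cells the value turned to -0.27 with scaling to the median and to 0.48 with quantile normalization, where it was called at an adjusted p of 0.0323.

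Spi1, encoding PU.1, which instructs myeloid fate when abundant and supports B-cell fate when low, was detected on all 8 arrays. It was at -0.21 and -0.04 in control cells with IL-7 and at -0.15 and -0.06 without. In miR-125b cells it was at 0.22 and -0.44 with IL-7 and at 0.17 and -0.10 without. All 4 groups overlapped, and the 2 miR-125b arrays with IL-7 spanned the other 6. The withdrawal differences were 0.02 (SE 0.23, 95% interval -0.53 to 0.58) and 0.14 (SE 0.23, 95% interval -0.41 to 0.70), so changes anywhere within these bounds remain possible.

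Ikzf1 was measured with 3 probes, of which the second had the largest withdrawal differences. Ikaros is known for restraining the cell cycle and IL-7 receptor signalling in pre-B cells. The second probe stood at 1.00 and 1.69 in control and at 1.58 and 1.37 in miR-125b cells with IL-7. Without IL-7 it stood at 2.91 and 2.80 in control and at 3.10 and 2.92 in miR-125b cells. The arrays without IL-7 were all above those with it. The control difference was 1.51 (SE 0.23, 95% interval 0.94 to 2.07), 2.84-fold, with an adjusted p of 0.00411 by limma and Benjamini-Hochberg, and the miR-125b difference was 1.54 (SE 0.23, 95% interval 0.97 to 2.10), 2.9-fold, with an adjusted p of 0.00449. Both were called under each of 18 other settings, with values of 1.16 to 1.85 and 1.29 to 1.65. The 2 control arrays with IL-7 were further apart than any other replicate pair of this probe.

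The third Ikzf1 probe, in the last zinc finger, stood at -0.96 and -0.90 in control and at -0.55 and -0.69 in miR-125b cells with IL-7. Without IL-7 it stood at -0.39 and -0.35 in control and at -0.15 and -0.09 in miR-125b cells. The 4 groups did not overlap at any step of the order control with IL-7, miR-125b with IL-7, control without, miR-125b without. The withdrawal differences were 0.57 (SE 0.08, 95% interval 0.36 to 0.77), 1.48-fold, and 0.50 (SE 0.08, 95% interval 0.30 to 0.70), 1.41-fold, with adjusted p of 0.00365 and 0.00576 by limma and Benjamini-Hochberg. With scaling to the median they fell to 0.23 and 0.25 and were not called, at adjusted p of 0.173 and 0.152, while the median of all probes moved there to -0.42 and -0.31.

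The first Ikzf1 probe stood at 3.52 and 3.48 in control and at 3.75 and 3.32 in miR-125b cells with IL-7. Without IL-7 it stood at 3.84 and 3.93 in control and at 4.10 and 3.90 in miR-125b cells. All arrays without IL-7 were above all with it, yet the differences of 0.38 (SE 0.16, 95% interval -0.01 to 0.77) and 0.47 (SE 0.16, 95% interval 0.08 to 0.85) missed the threshold at adjusted p of 0.0882 and 0.0518. Each was called in 7 of 19 other settings. All 3 probes had positive differences. The second minus the first probe moved from -2.11 ± 0.32 to -1.01 ± 0.08 (SD, n = 4), by 1.10, with p = 0.0286 in the exact permutation test and 0.0572 adjusted over 6 pairs. The third minus the first moved by 0.11 (exact permutation p = 0.371), and the second Ikzf1 probe minus Irf4 by 0.05 (exact permutation p = 0.743). Each side again pools control and miR-125b arrays. These pairs were also chosen after the values were seen, so their p-values are no independent test.

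Ikzf3, encoding Aiolos, the Ikaros relative that rises in later B-cell stages, was at -2.37 and -2.01 in control and at -2.44 and -2.35 in miR-125b cells with IL-7. Without IL-7 it was at -2.06 and -1.99 in control and at -2.25 and -2.15 in miR-125b cells. The control groups overlapped and the miR-125b groups did not. The differences of 0.16 (SE 0.13, 95% interval -0.17 to 0.49) and 0.19 (SE 0.13, 95% interval -0.14 to 0.52) were not called, and their sign was not stable, at -0.17 in control cells with scaling to the median and -0.18 in miR-125b cells with normexp background correction. Without the second control array with IL-7 the control difference was 0.34 and was called at an adjusted p of 0.0488. Ikzf2, encoding Helios, best known in T cells, was well above background on 0 of 8 arrays with either probe, at -7.47 to -5.99 and -7.42 to -6.37, and no fold is given.

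**Figure D3:**
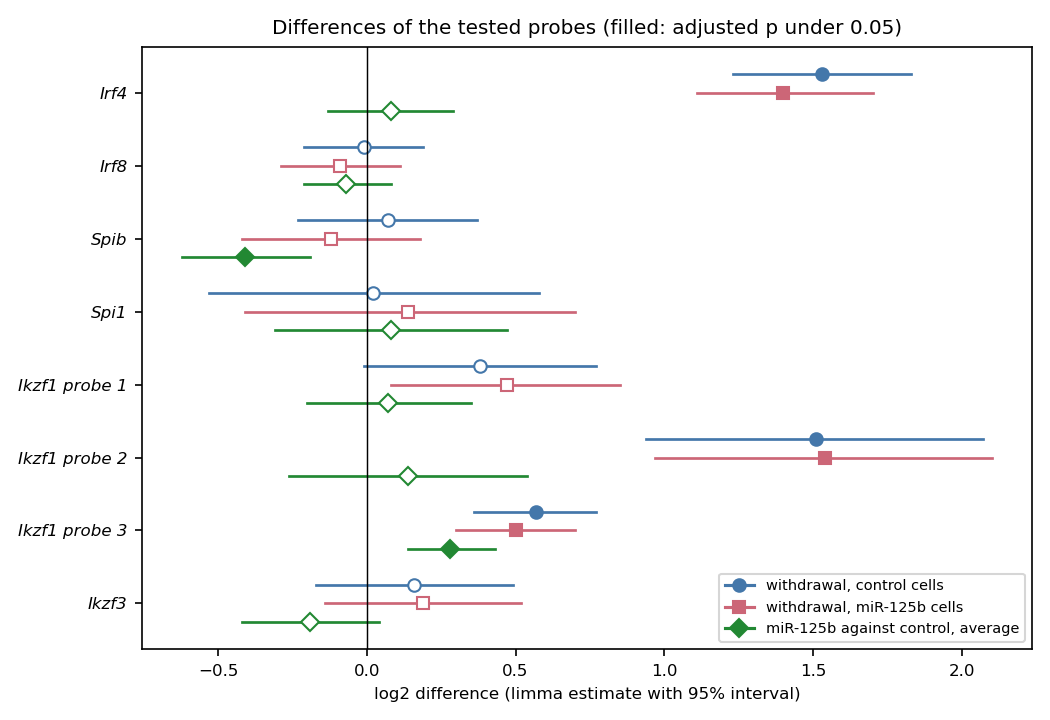
Log2 differences of the 8 tested probes (horizontal axis) with their 95% intervals from limma, for withdrawal in each cell type and for miR-125b against control averaged over IL-7 conditions; filled symbols had an adjusted p under 0.05. Irf4 and the second Ikzf1 probe lay near 1.5 in both withdrawals, the third Ikzf1 probe near 0.5, and Spib was the called probe to the left of 0, at -0.41 in the vector comparison.

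The vector comparison asked whether these RNAs differ in cells with the miR-125b vector. With IL-7, 0 of the 8 probes were called, against 1.63% of all tested probes (0.738% higher, 0.892% lower), and 2, of Spib and the third Ikzf1 probe, had an unadjusted p under 0.05, as had 5946 of all 29811. Without IL-7, 0 were called, against 4.82% of all (2.26% higher, 2.56% lower), and the same 2 had an unadjusted p under 0.05, as had 7101 of all 29811, shares that do not set the members apart. Without IL-7 Spib was called in 5 of 19 other settings. With the difference averaged over both IL-7 conditions, Spib was called lower and the third Ikzf1 probe higher, 2 of 8 probes against 13.9% of all (6.47% higher, 7.48% lower). The median difference over the 8 probes was 0.02, 0.07 and 0.08 in the 3 comparisons, beside -0.04, -0.01 and -0.03 over all tested probes.

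Spib was lower on all 4 miR-125b arrays, at 5.83 to 6.16, than on all 4 control arrays, at 6.29 to 6.42. How many of all tested probes separate by vector in this way was not counted. For the average, 9412 of all 29811 had an unadjusted p under 0.05 by limma, so such a separation need not be particular to Spib. The difference was -0.31 with IL-7 (SE 0.12, 95% interval -0.61 to -0.01, adjusted p 0.235) and -0.50 without (SE 0.12, 95% interval -0.80 to -0.20, adjusted p 0.0769). The average was -0.41 (SE 0.09, 95% interval -0.62 to -0.19), a 1.32-fold lower signal, with an adjusted p of 0.0338 by limma and Benjamini-Hochberg. It was called in 9 of 18 other settings, with values from -0.49 to -0.26. The call was lost when any single control array, or either miR-125b array without IL-7, was left out, at adjusted p of 0.0696 to 0.107, and with scaling to the median, at -0.26 and an adjusted p of 0.189. With the replicate number as a block the adjusted p was 0.0614. Relative to Irf8 on the same array, Spib lay at 0.23 to 0.34 on control and at -0.25 to 0.18 on miR-125b arrays, a shift of -0.34, with an exact permutation p of 0.0286 and 0.172 adjusted over 6 pairs. Each side here pools arrays with and without IL-7. Here too the pair was chosen after the values were seen, so the p-value is no independent test.

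The third Ikzf1 probe was higher with miR-125b by 0.31 with IL-7 (SE 0.08, adjusted p 0.121) and by 0.25 without (SE 0.08, adjusted p 0.147). The average was 0.28 (SE 0.06, 95% interval 0.14 to 0.43), 1.22-fold, with an adjusted p of 0.0324 by limma and Benjamini-Hochberg, and it was called in 8 of 17 other settings. The call was lost without any single array but the second miR-125b array with IL-7, at adjusted p of 0.0692 to 0.114, and with the replicate block at 0.0662. The first and second Ikzf1 probes differed by 0.07 (SE 0.11, adjusted p 0.698) and 0.14 (SE 0.16, adjusted p 0.598) on average, so the vector difference was called on 1 of 3 Ikzf1 probes.

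Irf4, the described miR-125b target, did not pass. Its differences were 0.15 (SE 0.12, 95% interval -0.15 to 0.45, adjusted p 0.551) with IL-7 and 0.02 (SE 0.12, 95% interval -0.28 to 0.32, adjusted p 0.943) without, and 0.08 (SE 0.09, 95% interval -0.13 to 0.29, adjusted p 0.555) on average. The groups overlapped with IL-7, and without it the 2 miR-125b arrays were narrowly above the 2 control arrays. The lower end of the interval, -0.13, bounds a reduction of Irf4 RNA in the average, and protein was not measured. For Irf8, Spi1 and Ikzf3 the averages were -0.07 (SE 0.06), 0.08 (SE 0.16) and -0.19 (SE 0.09), with adjusted p of 0.48, 0.778 and 0.229.

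For the difference of the withdrawal response between miR-125b and control cells, 0 of 8 probes were called, and 0% of all 29811. At an unadjusted p under 0.05 there were 1721 probes over all and 0 among the 8. The members' estimates lay between -0.19 (Spib, 95% interval -0.61 to 0.23) and 0.12 (Spi1, 95% interval -0.67 to 0.90). Differences of response anywhere within these intervals remain possible, and the intervals do not give the size that could be called.

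The order of the group means can be read per gene. For Irf4 it ran from control with IL-7 (3.17 ± 0.13, SD, n = 2) and miR-125b with IL-7 (3.31 ± 0.21), which overlapped, to control without (4.70 ± 0.01) and miR-125b without (4.72 ± 0.01). For Spib it ran from miR-125b without IL-7 (5.88 ± 0.03) and miR-125b with IL-7 (SD 0.23 around the mean of its 2 arrays), which overlapped, to control with (6.31 ± 0.03) and control without (6.38 ± 0.07), which differed by 0.07 with no call. For Irf8 all 4 means lay between 5.94 and 6.05, and for Spi1 between -0.13 and 0.03, and neighbours in these orders were not called apart.

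Across the 8 arrays, Irf4 correlated with the second Ikzf1 probe at r = 0.98, with the third at 0.91 and the first at 0.89, and with Irf8 at -0.45 and Spib at -0.06. These coefficients describe 8 arrays on 2 slides, which share the slide and IL-7 contrast, and carry no test. Among 12884 genes detected on all arrays, those with a pattern most like Irf4 were Usp51 (r = 0.998), Synj1 (0.997) and Slc1a4 (0.997). The pattern most like Ikzf1, by its first probe, was that of Zeb2 (0.988), Dhx58 (0.988) and Zscan29 (0.984), and most like Spib that of AF067061 (0.992), Gm20767 (0.985) and Necap2 (0.976). For Irf8 they were Star (0.929), Myo1g (0.919) and Taf1c (0.914), for Spi1 Myadml2 (0.962), Adam6b (0.940) and Eid2b (0.936), and for Ikzf3 Rnf123 (0.953), Naip5 (0.950) and Trpc2 (0.945).

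The relatives and partners of these factors were read from lists of named genes, 1 probe per gene. The lists were chosen with earlier results of these data known, so their counts are description and not a test. A gene named for only 1 cell type was among the largest called differences there. This does not show that the cell types differ in it, and no probe was called for the difference of responses. Their counts stand against the shares over all tested probes, which were 20.8% higher and 30.4% lower on withdrawal in control cells, 21.2% and 28.1% in miR-125b cells, and 6.47% and 7.48% with miR-125b on average. These shares are per probe, unlike the lists. With 1 probe a gene, 54.1%, 52.4% and 16% of 20611 were called in these 3 comparisons. Of those calls 37%, 38.8% and 45.9% were higher, and the withdrawal medians were -0.13 and -0.11. Of 7 other IRF genes, 3 rose and 2 fell on withdrawal in control cells, and 3 rose and 1 fell in miR-125b cells. Irf9, a subunit of the interferon-activated ISGF3 complex, rose by 0.87 (SE 0.13, adjusted p 0.00348) and 0.75 (SE 0.13, adjusted p 0.00586). Irf1, an interferon-induced activator, rose by 0.53 in control cells (SE 0.07, adjusted p 0.00266), and Irf3 fell in miR-125b cells (-0.38, SE 0.07, adjusted p 0.0078). The list's median was 0.19 in control and -0.07 in miR-125b cells, and with scaling to the median 1 rose and 2 fell in control cells, with a median of -0.14. With miR-125b, averaged, Irf7 was lower (-0.94, SE 0.15, adjusted p 0.0174), Irf1 was lower (-0.51, SE 0.05, adjusted p 0.00597) and Irf9 was higher (0.44, SE 0.09, adjusted p 0.0303), 3 of the 7.

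Of 13 other ETS genes tested, 2 rose and 2 fell on withdrawal in control cells, with a median of 0.03, and 2 rose and 1 fell in miR-125b cells, with a median of -0.11. Elk1, a target of MAP kinase signalling, fell (-0.55, SE 0.08, and -0.58, SE 0.08), and Elf1 rose by 0.39 (SE 0.08) and 0.45 (SE 0.08), while with scaling to the median 0 of the 13 rose in either cell type and 5 and 6 fell. With miR-125b 4 of the 13 were lower on average and 0 higher, Ets1 (-0.40, SE 0.06, adjusted p 0.0174) among them. With scaling to the median, 0 of these 13 were called with miR-125b. Among 9 partners tested, Jun, an AP-1 subunit that pairs with BATF beside IRF4, rose by 1.51 (SE 0.07, adjusted p 0.000497) in control and by 1.09 (SE 0.07, adjusted p 0.00129) in miR-125b cells. Nfatc1, a calcium-responsive factor, fell (-0.79, SE 0.09, and -0.62, SE 0.09). With miR-125b 3 of 9 partners were lower on average: Jun (-0.86, SE 0.05, adjusted p 0.00306), Junb (-0.34, SE 0.07, adjusted p 0.0286) and Batf. The Batf probe was well above background on 0 of 4 miR-125b arrays, and without IL-7 the control cells were at least 2.44-fold higher (adjusted p 0.013).

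The Ikaros relatives Ikzf4 and Ikzf5 and the NuRD subunits formed a list of 14 tested genes, of which 10 fell and 0 rose on withdrawal in control cells, and 10 fell and 1 rose in miR-125b cells. Gatad2b, a NuRD subunit, fell in control (-1.11, SE 0.08, adjusted p 0.00141) and in miR-125b cells (-1.07, SE 0.08, adjusted p 0.00175). Chd3, a NuRD ATPase, fell in control cells (-0.81, SE 0.08, adjusted p 0.00182), and Rbbp4, a histone-binding subunit, fell in both (-0.62, SE 0.07, and -0.58, SE 0.07). The list medians were -0.48 and -0.42, where all probes had -0.09 and -0.06. With quantile normalization 4 of the 14 were called lower and 1 higher in each cell type. With miR-125b, 1 of the 14 was higher (Mbd3, 0.32, SE 0.06) and 1 lower (Hdac1, -0.31, SE 0.06) on average.

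Genes known as targets were read from 4 lists, which share members: Rag1 and Rag2, Cd74, Il7r and Blnk each stand in more than 1 list, and Spib, Ikzf1 and Ikzf3 are themselves in the list of IRF4 and IRF8 targets. Of 14 IRF4 and IRF8 targets, 7 rose and 0 fell in control cells (median 0.44), and 5 rose and 0 fell in miR-125b cells (median 0.22). Rag1, the recombinase subunit needed for light chain rearrangement, rose by 2.89 (SE 0.28, adjusted p 0.00184) and 2.20 (SE 0.28, adjusted p 0.00314). Rag2, its partner, rose by 1.98 (SE 0.26) and 1.33 (SE 0.26), and Cd74, the invariant chain of MHC class II, by 2.72 (SE 0.34, adjusted p 0.00251) in control cells, while its difference in miR-125b cells was 0.91 (SE 0.34, adjusted p 0.0693). With scaling to the median 4 rose and 1 fell in control cells. With miR-125b, 1 of the 14 was higher on average (Rag2, 0.96, SE 0.18, adjusted p 0.0265) and 4 were lower, Cd74 (-1.26, SE 0.24, adjusted p 0.0255) and Il7r (-0.62, SE 0.07, adjusted p 0.00798) furthest, and Spib itself among them.

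Of 20 PU.1 and SPI-B targets, 8 rose and 1 fell in control cells (median 0.20), and 5 rose and 2 fell in miR-125b cells (median 0.07). Ms4a1, encoding CD20, was well above background on 0 of 4 arrays with IL-7 and was at least 9.44-fold higher without it in control cells (adjusted p 0.00238) and at least 2.22-fold in miR-125b cells (adjusted p 0.0103). Cd40, a co-stimulatory receptor, was at least 26.7-fold higher in control cells (adjusted p 0.0054). Fcgr2b, the inhibitory Fc receptor, rose by 1.44 (SE 0.24, adjusted p 0.00577) in miR-125b cells. With scaling to the median the control split was 6 higher and 7 lower, so the direction of this list as a whole depends on the scaling. With miR-125b, 2 were higher and 5 lower on average, with P2ry10 (-0.91, SE 0.17, adjusted p 0.0238) and Grap2 (-0.79, SE 0.15, adjusted p 0.0277) lower beside Cd74 and Il7r.

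Of 9 tested genes known as induced by Ikaros and Aiolos in pre-B cells, 8 rose and 0 fell in each cell type, with medians of 1.16 and 1.24, where 20.8% and 21.2% of all tested probes rose and the medians were -0.09 and -0.06. This list too was chosen with earlier results of these data known, so the excess is no test of Ikaros or Aiolos activity. Btg1, an anti-proliferative gene, rose by 1.76 (SE 0.16, adjusted p 0.00208) in miR-125b cells, beside Rag1 and Rag2. With scaling to the median 5 of the 9 rose in each. Of 12 genes known as repressed by them, 6 fell and 1 rose in control cells (median -0.39), and 8 fell and 1 rose in miR-125b cells (median -0.57). Myc, a driver of growth, fell in control (-2.11, SE 0.25, adjusted p 0.00226) and in miR-125b cells (-1.45, SE 0.25, adjusted p 0.00662). Ccnd3, encoding cyclin D3, fell in control cells (-0.80, SE 0.08), and Hes1, a Notch target, in miR-125b cells (-1.01, SE 0.18). Ccnd2 moved the other way and was at least 2.7-fold higher without IL-7 in control cells (adjusted p 0.00185), from a signal not well above background. With quantile normalization 1 of the 12 was called lower and 2 higher in control cells. With miR-125b, averaged, 2 of these 12 were higher, Myc (1.13, SE 0.18, adjusted p 0.0164) among them, and 4 lower, Ccne1 (-0.90, SE 0.07, adjusted p 0.00393) among them.

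**Figure D4:**
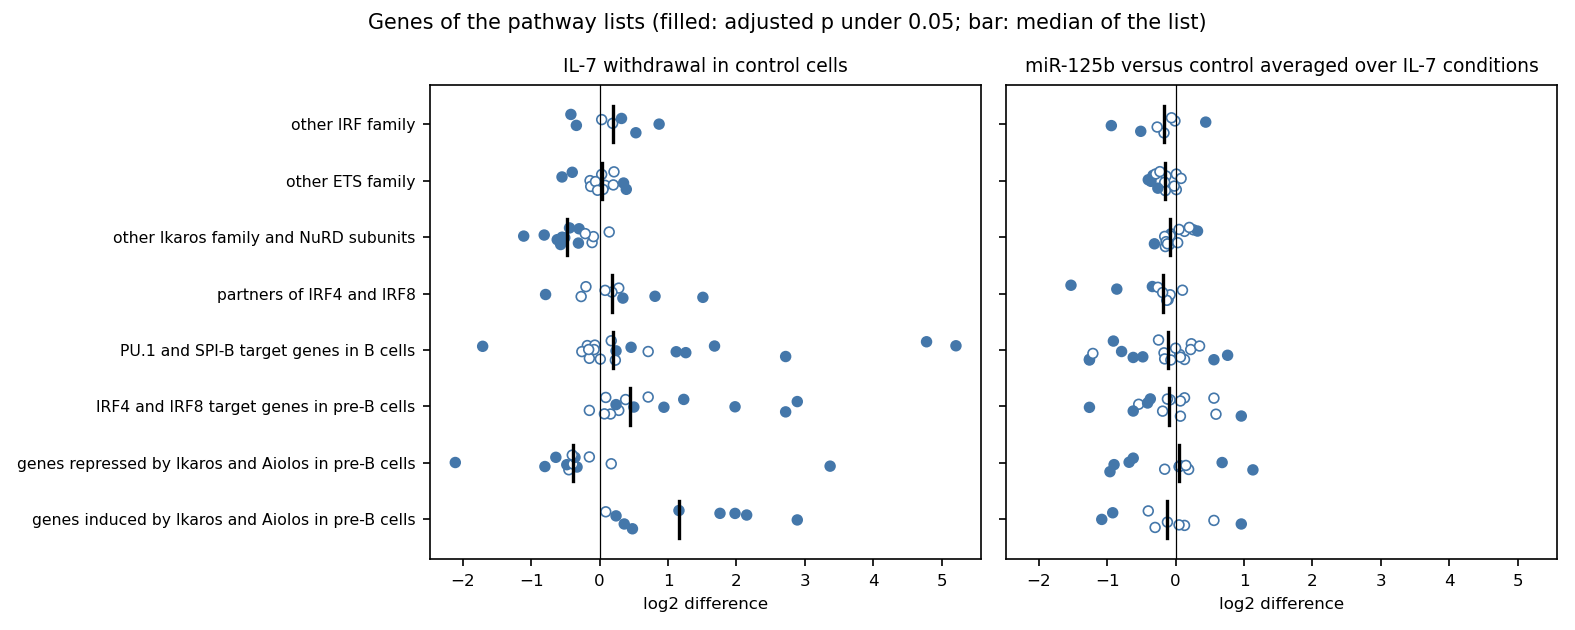
Log2 differences (horizontal axis) of the genes in the 8 lists (vertical axis), for IL-7 withdrawal in control cells (left) and with miR-125b averaged over IL-7 conditions (right); filled dots had an adjusted p under 0.05 and bars are list medians. On withdrawal the list of Ikaros and Aiolos induced genes has its median at 1.16 and that of NuRD subunits at -0.48, while all list medians on the right lie between -0.19 and 0.05. The 2 dots furthest right, Cd40 and Ms4a1, start from signals not well above background. The lists were chosen with earlier results of these data known.

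Summed signals of cell type markers moved with these comparisons as well, though a sum follows its brightest probes. The log2 of the summed signal of the 12 T and NK markers was 5.57 to 5.58 and 5.39 to 5.52 on control arrays with and without IL-7, and 4.82 to 4.92 and 4.63 to 4.77 on miR-125b arrays. Zap70, at 4.17 to 5.33, gave most of this sum. Of the 7 T and NK markers tested, 1 was called higher and 2 lower with miR-125b on average, against 6.47% and 7.48% of all tested probes. Cd3d, Cd3g, Cd8b1, Ncr1 and Gata3 were well above background on no array, while Cd3e, Cd4, Lck, Zap70 and Klrb1c were so on all 8. Tcf7 was so on 6 arrays, and Cd8a on 0 of 4 with IL-7 and 4 of 4 without. The log2 of the summed signal of the 7 dendritic cell markers was 7.19 to 7.42 with IL-7 and 6.55 to 6.75 without, that of the 6 plasma cell markers 7.45 to 7.64 and 7.08 to 7.22, that of the 15 myeloid markers 7.29 to 7.59 and 7.41 to 7.61, and that of the 14 B-lineage markers 10.84 to 10.89 and 10.56 to 10.60. Siglech, at 6.53 to 7.41, Mzb1, at 6.92 to 7.52, and Csf3r, at 7.17 to 7.48, gave most of the dendritic cell, plasma cell and myeloid sums. On withdrawal in control cells 6 of the 14 B-lineage markers were called higher and 2 lower, though their sum fell. Over all tested probes 20.8% were called higher and 30.4% lower. The part of other cell types in the differences of Irf4, Ikzf1 and Spib was not tested.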

How the data were processed

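RNA abundance was measured on 8 single-colour Agilent arrays, 2 per group. Per the labels, 100 ng of total RNA was labelled with Cy3 per sample. The authors deposited each array's scanner output. Per the file headers its processed signal is an intensity on a linear scale, background-subtracted and not normalized between arrays, and its quality marks, of another kind (other), give 0 or 1 per spot for well above background, saturated and not uniform. Agilent Feature Extraction is 10.7.3.1 in the headers of the IL-7 arrays, and 10.7.1.1 in the other headers and in the submitters' processing notes. A second deposited file, the authors' normalized intensity for 55821 probes, has the same distribution in each column and served as an alternative. No columns of other series were found (0).

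Each array held 62976 spots, of which 3671 were controls and stayed out. Spots of 1 probe were averaged without those marked not uniform, giving 55681 probes. The 58 probes with all of their spots so marked on any array were removed. The log2 75th percentile of its array was subtracted from each log2 signal. The percentile was 325.1 to 379.3 with IL-7 and 605.5 to 722.5 without. The test took the 29811 probes that in some group were well above background on both of its arrays. A model with 4 group means over 8 arrays, with 4 residual degrees of freedom, was fitted per probe with limma 3.58.1 under R 4.3.3, and p-values, all two-sided, were Benjamini-Hochberg adjusted within each of 6 comparisons. Lists used the gene's tested probe with the highest mean. Where a probe was dim in a group, "at least" folds start from the higher of its own signal and the lowest detected signal of each array. At most 3 called genes per list and comparison are named, those with the largest differences, and 3 genes by likeness of pattern. Some genes are not reported here.

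In simulated data with 200 changed probes, the share of 2-fold changes recovered was 49% for withdrawal in control cells, 54% for withdrawal in miR-125b cells, 44% for the vector with IL-7, 42% for the vector without it, 71% for the average and 26% for the difference of responses. In the data far more probes were called on withdrawal, 51.2% and 49.3% of 29811, and 13.9% for the average. The Benjamini-Hochberg threshold depends on that share, so the simulated recovery for these comparisons does not describe their tests. The vector with IL-7, the vector without it and the difference of responses had 1.63%, 4.82% and 0% called. Their simulated recoveries too hold only for 200 changed probes. The number of arrays limits the precision. Alternatives were scaling to the median, quantile normalization, normexp background correction, no filter on dim probes or a stricter one, 1 probe a gene, only the arrays compared, a replicate block, a mean-variance trend, non-uniform spots kept, the authors' deposited values, and leaving out each array. Same-numbered arrays of different groups had deviations from the group means that correlated at -0.11 to 0.11. No shared effect of the replicate number was seen, but this cannot show that same-numbered samples are unpaired. Symbols and sequences are from RefSeq (GRCm38.p6), and 15.2% of spots are named differently in the grid versions of the 2 slides. The members and lists were chosen with earlier results of these data known.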

Additional observations from a re-analysis of the deposited data

How the results depend on the processing

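Of the results for single member probes under the alternatives, 838 kept their side of the threshold. Another 20 lost a call, 22 gained one with the same sign and 4 gained one with the opposite sign. Changes of sign among results that stayed uncalled were not counted. They occurred, for example, for Spib, Spi1 and Ikzf3 on withdrawal in control cells with scaling to the median. The 4 called with the opposite sign were Irf8 on withdrawal, at 0.35 and 0.29 with quantile normalization and 0.35 and 0.30 with the deposited table, in control and miR-125b cells. Both of those settings make the arrays share 1 distribution.

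Counts of called member probes changed as follows. On withdrawal in control cells, 3 became 6 with quantile normalization, 6 with the deposited table and 1 with 1 probe a gene, where 1 Ikzf1 probe is tested. In miR-125b cells, 3 became 5 with quantile normalization, 5 with the deposited table and 2 with 1 probe a gene. Scaling to the median gave 2 and normexp 4 in both cell types. For miR-125b averaged, 2 became 1 with scaling to the median, 0 without the filter and 1 with 1 probe a gene. Without IL-7, 0 became 1 with normexp, 1 with the stricter filter and 1 with the trend.

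Counts over all probes moved too. For miR-125b with IL-7, 486 became 203 with scaling to the median, 951 with normexp, 0 without the filter, 1087 with the stricter filter, 0 with only the arrays compared and 1881 with the trend. Without IL-7, 1437 became 2355 with quantile normalization, 3663 with normexp, 566 without the filter, 2472 with the stricter filter, 0 with only the arrays compared, 3347 with the trend and 2347 with the deposited table. The average, 4158, became 6578 with normexp and 851 without the filter, and withdrawal in miR-125b cells, 14684, became 9731 without the filter. The difference of responses, 0, became 1 with scaling to the median, 2 with quantile normalization, 5 with normexp, 1 with the trend and 2 with the deposited table. The causes were not tested. Scaling to the median moved the median of all probes from -0.09 to -0.42 and from -0.06 to -0.31 on withdrawal, and calls higher from 40.7% to 19% and from 43% to 24.5% of all calls; normexp gave 24.4% and 24.2%. With miR-125b, scaling to the median moved calls higher from 45.3% to 62.1%, 47% to 78.7% and 46.4% to 78%.

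With the replicate number as a block, 1, 424 and 2662 probes were called for miR-125b with IL-7, without and on average, with 0 member probes in the average. Whether the number pairs the samples is not known.

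Leaving out 1 array gave 0 to 103, 0 to 1133 and 1025 to 3230 probes called for miR-125b with IL-7, without and on average, and 0 to 0, 0 to 1 and 0 to 2 member probes. Withdrawal gave 9304 to 15071 and 9073 to 14513, with 3 to 4 member probes in each, and the difference of responses 0 to 1, with 0 to 0 member probes. A group left with 1 array was assumed to vary like the others.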
